A study of Ovis aries with 26 samples.

Results

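Aquaporins are membrane proteins that form water channels, and some members of the family, the aquaglyceroporins, also pass glycerol and other small solutes. In the exocrine pancreas acinar cells secrete digestive enzymes with a small volume of chloride-rich fluid and duct cells add a larger volume rich in bicarbonate, and water follows the ions. CFTR, the chloride and bicarbonate channel that is mutated in cystic fibrosis, lies in the apical membrane of the duct cells. The aquaporins examined here were chosen by name, as AQP8, AQP1, AQP3, AQP4, AQP5, AQP11 and AQP12, and 6 of these 7 were found among the 24478 genes of the count tables. AQP12 was not analysed here. Another 6 genes of the family (AQP2, AQP6, AQP7, AQP9, AQP10 and MIP) were in the tables and are given at the end. As background, AQP8 lies in the apical membrane of acinar cells in rodents, AQP1 is the channel of capillary endothelium and red cells and of ducts in some species, and AQP5 is the apical channel of salivary and lacrimal acini. AQP4 is the channel of glial end-feet, AQP3 is an aquaglyceroporin of basolateral membranes, and AQP11 is found on intracellular membranes.

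Counts of unique molecular identifiers (UMIs), 1 for each captured transcript, came from 26 libraries of single cells, made with the 3′ chemistry of 10x Genomics. The cells were from the pancreas of 23 American Romney sheep in 7 groups. At 80 days of gestation there were 4 WT-group fetuses, all male and naturally bred, of which replicates 2 and 4 were CFTR+/- and replicates 2 to 4 were triplets, and 3 cloned male CFTR-/- fetuses. At 120 days there were 3 WT fetuses (replicate 2 female), 4 cloned male CFTR-/- fetuses and 2 naturally bred female CFTR-/- fetuses, the latter described as twins. At term there were 4 WT newborn lambs (replicate 3 female) and 3 CFTR-/- newborn lambs, of which replicates 1 and 2 were naturally bred females and replicate 3 a cloned male. All clones were made by somatic cell nuclear transfer from 1 male cell line with targeted CFTR exon 2, so the cloned animals represent 1 line. Genotype cannot be told apart from breeding at 80 days and in the cloned group at 120 days. The naturally bred CFTR-/- fetuses at 120 days were both female, as was 1 of the 3 WT fetuses. By the paper's animal names, WT replicates 1 and 2 and cloned replicates 2 and 3 at 120 days also appear to be littermates. So do CFTR-/- replicates 2 and 3 at 80 days, and littermates were counted as separate animals. The number of animals, 2 to 4 a group and fewer where a lineage had under 20 cells, limits every comparison, and the libraries of an animal were summed before testing.

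A barcode was kept if it had over 200 genes, under 6000 genes and a mitochondrial share under 25%, which left 79510 of 109501, and library totals ran from 7841217 to 171256169 UMIs. Libraries shared at most 12 barcodes, 0.458% of the smaller library. Acinar cells were gated by CEL (bile salt-activated lipase) and CTRC (chymotrypsin C), never by AQP8, and the other lineages by marker lists. The acinar gate held 33434 cells (42.1% of those kept), the duct gate 11462, the endocrine gate 9159, the stromal gate 6691, the endothelial gate 4127, the mural gate 2869, the myeloid gate 1678, the lymphoid gate 1065 and the Schwann gate 968. All 14 acinar markers were highest in the acinar gate, as were all 8 endothelial, 8 myeloid and 10 Schwann markers in theirs. So were 7 of 8 duct markers in the duct gate, with KRT19 higher in the intestinal gate. Apart from the 12 acinar markers outside the acinar gate, these genes made the gates, so for them this is a description and no test. In each library 0.694% to 11.7% of kept cells lay within a factor of 1.5 of the acinar threshold. The 3542 cells that passed more than 1 gate were left out of all lineages.

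AQP8 was by far the most counted aquaporin and was an acinar transcript. Of its 857891 UMIs in kept cells, 93.3% were in the acinar gate, where 31647 of 33434 cells (94.7%) had at least 1 UMI, and another 4.16% were in the cells of mixed gates. The share of acinar cells with an AQP8 UMI ran from 82.4% to 99.4% per animal, and from 53.6% to 95.9% after each cell was thinned to 3000 UMIs, which left out 2668 shallower acinar cells. In endothelial cells, which should lack AQP8, the share with a UMI was 0% to 24.8% per animal, and 0% to 11.7% after thinning, with 1091 cells left out. Median depth was 26632.5 UMIs in acinar and 5562 in endothelial cells.

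The other members had far fewer UMIs, and each had its own distribution. AQP4 had 7919 UMIs, of which 73.8% were in acinar, 13.4% in endocrine and 2.70% in Schwann cells. AQP3 had 3118 UMIs (77.3% acinar) and AQP11 had 1603 (71.6% acinar, 10.2% endocrine and 4.74% Schwann). AQP1 differed from these, with 83.1% of its 439 UMIs in endothelial cells, where 300 of 4127 cells had 1 or more. AQP5 was all but undetected, with 18 UMIs in all kept cells, 9 of them in 7 of the 11462 duct cells. None of the 33434 acinar cells had an AQP5 UMI, which allows a share of acinar cells with a UMI of up to 0.00897%. Such limits cover counting error only.

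Levels were then compared within each gene between lineages, as UMIs scaled to 1000000 per sum (CPM) in the pooled cells of a lineage in each animal that had 20 or more of them. Lineages that followed each other in the order of mean log2(CPM + 1) were compared in the same animals by an exact paired permutation test, and p-values were adjusted by the Benjamini-Hochberg method for the 54 neighbouring pairs of the 6 genes. The intestinal gate, with 20 or more cells in 1 animal only, was left out of this order, and its AQP8 is given below. Of the 54 pairs, 2 passed. Acinar AQP8, at a mean of 749 CPM over 23 animals, was above the next lineage, the myeloid cells with 49.8 CPM, in 16 of 16 animals, by 4.43 ± 1.38 on the log2 scale (SD, adjusted p = 0.000824). Acinar AQP4, at 6.89 CPM, was above duct AQP4, at 1.45 CPM, in 23 of 23 animals, by 1.82 ± 0.69 (adjusted p = 1.29e-05). The calls depended on the cell minimum. With 50 cells in place of 20 both passed again by the same test. There AQP11 also passed for acinar above duct cells (22 of 22 animals, adjusted p = 1.14e-05). AQP4 passed for duct above stromal cells (16 of 20 animals, adjusted p = 0.00940).

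The upper places for the remaining genes were not separated past the adjusted threshold by these tests. AQP4 was highest in Schwann cells (mean 27.6 CPM over 10 animals), followed by endocrine cells (8.92 CPM, adjusted p = 0.0703 by the exact paired permutation test), and endocrine AQP4 did not differ beyond its spread from acinar AQP4 (adjusted p = 1). AQP11 was also highest in Schwann cells, at 8.70 CPM against 1.47 CPM in endocrine cells (exact adjusted p = 0.0703). For AQP4 and AQP11 alike, Schwann cells were above endocrine cells in 8 of 9 animals. The differences were 1.78 ± 1.12 and 1.58 ± 0.78 on the log2 scale (SD, unadjusted exact paired permutation p = 0.00781 for each). With the higher cell minimum Schwann cells were above in 5 of 5 animals for each gene (exact p = 0.0625). So few pairs cannot give a smaller p, so that test could not decide. AQP1 was highest in endothelial cells, at 8.92 CPM against 4.06 CPM in Schwann cells (exact adjusted p = 0.738), although the Schwann value rested on 9 UMIs. AQP3 was highest in lymphoid cells, at 10.9 CPM against 1.76 CPM in acinar cells (exact adjusted p = 0.198). These means came from 12 and 23 animals, with a different mix of ages. At term lymphoid AQP3 was at 0 CPM. Endothelial AQP3 was then at 0 to 8.33 CPM in WT and 1.98 to 22.1 CPM in CFTR-/- lambs. The acinar ranges were 0.739 to 4.26 and 2.21 to 3.51 CPM. Stromal AQP3 reached 31.0 CPM in naturally bred replicate 6 at 120 days.

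**Figure D1:**
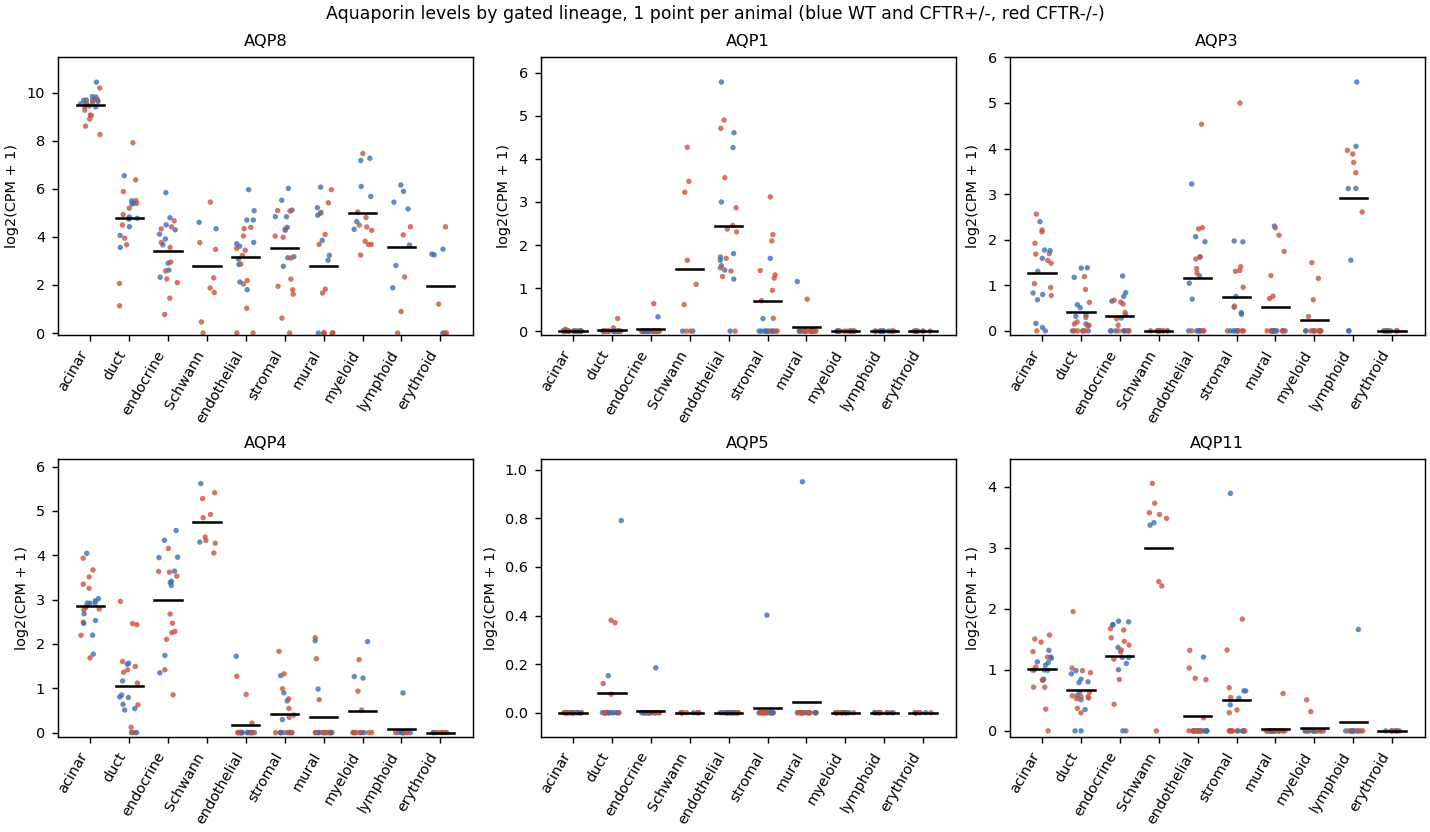
Level of each of the 6 aquaporins in 10 gated lineages, as log2(CPM + 1) on the vertical axis, with 1 point for each animal that had 20 or more cells of the lineage (blue, WT and CFTR+/-; red, CFTR-/-) and a black line at the mean. AQP8 stands highest in acinar cells, AQP1 in endothelial cells and AQP4 and AQP11 in Schwann cells, and AQP5 is at or near 0 in every lineage.

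AQP8 within acinar cells was set against the share of acinar cells, since the level in whole pancreas depends on both. In the WT group at 80 days the acinar level was 779, 793, 676 and 686 CPM in replicates 1 to 4, and in the cloned CFTR-/- fetuses it was 477, 695 and 534 CPM. The groups overlapped, since CFTR-/- replicate 2 lay within the WT range, and the means were 733 ± 60.9 and 569 ± 113 CPM (SD, n = 4 and 3). Here edgeR's quasi-likelihood test gave a log2 fold change of -0.54 (SE 0.40, Benjamini-Hochberg adjusted p = 0.69). Of the 4 members that passed the count filter in acinar cells (AQP8, AQP3, AQP4 and AQP11), edgeR called none at 80 days, against 0.624% of all 15063 genes tested. AQP3 alone had an unadjusted p under 0.05, and DESeq2 called 0 of the 4.

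At 120 days the acinar level was 824, 829 and 740 CPM in the WT fetuses. The cloned CFTR-/- fetuses had 748, 525, 305 and 845 CPM (mean 606 ± 241, SD, n = 4), a spread wider than the gap to the WT mean of 798 ± 50.2. The lowest value, of replicate 3, rested on 34 acinar cells. The fitted change was -0.78 (SE 0.39, edgeR adjusted p = 0.60), in a comparison in which 0% of the genes were called, with 1293 genes at an unadjusted p under 0.05 and 72 called by DESeq2. The ratio of the mean CPM was only -0.40 on the log2 scale. With scaling by library size alone the median acinar gene moved by 0.50 in this comparison. The naturally bred CFTR-/- twins had 833 and 1166 CPM, both above the highest WT fetus, and their fitted change was 0.34 (SE 0.47, adjusted p = 0.81), with 1.3% of the genes called. No member was called by edgeR or DESeq2 in either comparison at 120 days, and the single unadjusted p under 0.05 was that of AQP4 in the cloned fetuses.

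At term the acinar level was 1381, 900, 819 and 913 CPM in the WT lambs and 751, 388 and 614 CPM in the CFTR-/- lambs. All 3 CFTR-/- lambs lay below all 4 WT lambs, with means of 584 ± 183 and 1003 ± 255 CPM (SD). The ratio of the means was -0.78 on the log2 scale, and edgeR, after scaling by the trimmed mean of M-values (TMM), gave -0.59 (SE 0.40, adjusted p = 0.50). With 1.25% of the genes called in this comparison, 0 of the 4 members were called, 0 had an unadjusted p under 0.05 and DESeq2 called 0.

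The genotype effect on acinar AQP8 was then compared between ages and breeding types, by contrasts of contrasts in the same edgeR fit. The effect at term minus that at 80 days was -0.06 on the log2 scale (adjusted p = 0.998, 0.0664% of genes called). That in the cloned minus that in the naturally bred fetuses at 120 days was -1.12 (unadjusted p = 0.0171, adjusted p = 0.142, 3.1% of genes called). Neither difference passed the threshold, but without cloned replicate 4 the latter was -1.47 and passed it (adjusted p = 0.0415). In the latter the shared WT fetuses cancel, and it sets 4 cloned males against 2 female twins.

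Among the WT animals AQP8 in acinar cells was fitted 1.04 higher on the log2 scale at 120 than at 80 days (SE 0.39, unadjusted p = 0.0144, adjusted p = 0.18), and 0.18 higher at term than at 120 days (SE 0.40, adjusted p = 0.79). The ratio of mean CPM was only 0.12 and 0.33 on the same scale. The fit scales by TMM and the CPM by the library total, of which a few transcripts held a different part at each age. A gene with no symbol in the tables, LOC101117443, held 20.0% of acinar UMIs in the WT group at 80 days, 39.8% at 120 days and 35.1% at term, and 16 digestive enzyme genes held 5.40%, 9.13% and 19.4%. With scaling by library size alone the median change of all acinar genes from 80 to 120 days was -0.93, against 0 with TMM.

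The acinar share of kept cells was lower on average in 3 of the 4 CFTR-/- groups than in WT. At 80 days it was 40.3%, 24.8%, 25.5% and 24.9% in the WT group and 7.38%, 29.8% and 13.4% in the CFTR-/- fetuses, so CFTR-/- replicate 2 exceeded 3 of the WT-group fetuses. At 120 days the share was 56.2%, 62.7% and 31.8% in WT, 38.7%, 22.4%, 3.61% and 28.8% in the cloned CFTR-/-, and 60.4% and 49.1% in the naturally bred CFTR-/- fetuses. The library of cloned replicate 3, at 3.61%, had the fewest kept cells (943) and the lowest median depth (3425 UMIs). It also had the highest median mitochondrial share (8.60%), and 44.5% of its kept cells were endothelial. At term it was 63.7%, 56.1%, 77.9% and 61.5% in the WT lambs and 52.1%, 30.7% and 21.7% in the CFTR-/- lambs, with no overlap. By its own clusters the paper saw fewer CFTR-/- acinar cells at 80 days but not at term. It proposes that poor capture of live acinar cells or the sampling site may account for this. The part of capture and sampling in the shares given here was not tested.

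The differences of the mean shares were -12.0 percentage points at 80 days, -26.9 for the cloned and 4.44 for the naturally bred fetuses at 120 days and -30.0 at term. By an exact two-sided permutation test the p-values were 0.229, 0.114, 1 and 0.0571, and after Benjamini-Hochberg adjustment over 6 comparisons 0.343, 0.229, 1 and 0.229. With 3 against 4 animals the smallest p this test can give is 0.0571, and with 2 against 3 it is 0.2, so the design could not reach 0.05. The WT shares of 28.9 ± 7.60%, 50.3 ± 16.3% and 64.8 ± 9.27% (SD) at the successive ages did not differ past the threshold either (exact p = 0.114 and 0.286).

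All kept cells, a dissociated and filtered suspension, are here the nearest to a measurement of whole tissue, and capture shapes them too. Over them AQP8 was 412 ± 83.8 CPM in the WT group and 178 ± 135 CPM in the CFTR-/- fetuses at 80 days. The CFTR-/- values were 61.7, 326 and 146 CPM and the WT-group values 526, 421, 337 and 363 CPM, and the groups did not overlap. At term they were 1202, 790, 766 and 813 CPM in the WT and 585, 264 and 343 CPM in the CFTR-/- lambs, again with no overlap. The difference of mean log2 values was -1.50 at 80 days and -1.22 at term, each with an exact two-sided permutation p of 0.0571, the smallest the design allows, and an adjusted p of 0.114. In the cloned fetuses at 120 days the values were 535, 308, 63.2 and 499 CPM against 702, 725 and 464 CPM in WT (log2 difference -1.20, exact p = 0.171), and in the naturally bred ones 734 and 955 CPM (0.44, exact p = 0.2).

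The order of the animals by acinar share matched that by AQP8 over all kept cells in some groups only. The lowest whole-suspension level among the CFTR-/- fetuses at 80 days, that of replicate 1, came with the lowest acinar share, 7.38%, and the lowest at 120 days, that of cloned replicate 3, with a share of 3.61%. In contrast, the WT lamb with the highest share, 77.9%, had the lowest level of its group, 766 CPM, and of the CFTR-/- lambs replicate 3, with the lowest share of 21.7%, had 343 CPM against 264 CPM in replicate 2, with 30.7%. The naturally bred fetus with the lower share, 49.1%, had the higher level, 955 CPM. Acinar cells held a mean of 91.9%, 96.2% and 96.0% of the AQP8 UMIs of a WT animal at the 3 ages, 88.5% at 80 days and 86.9% at term in CFTR-/-, and 84.5% and 96.8% in the cloned and naturally bred CFTR-/- fetuses at 120 days.

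**Figure D2:**
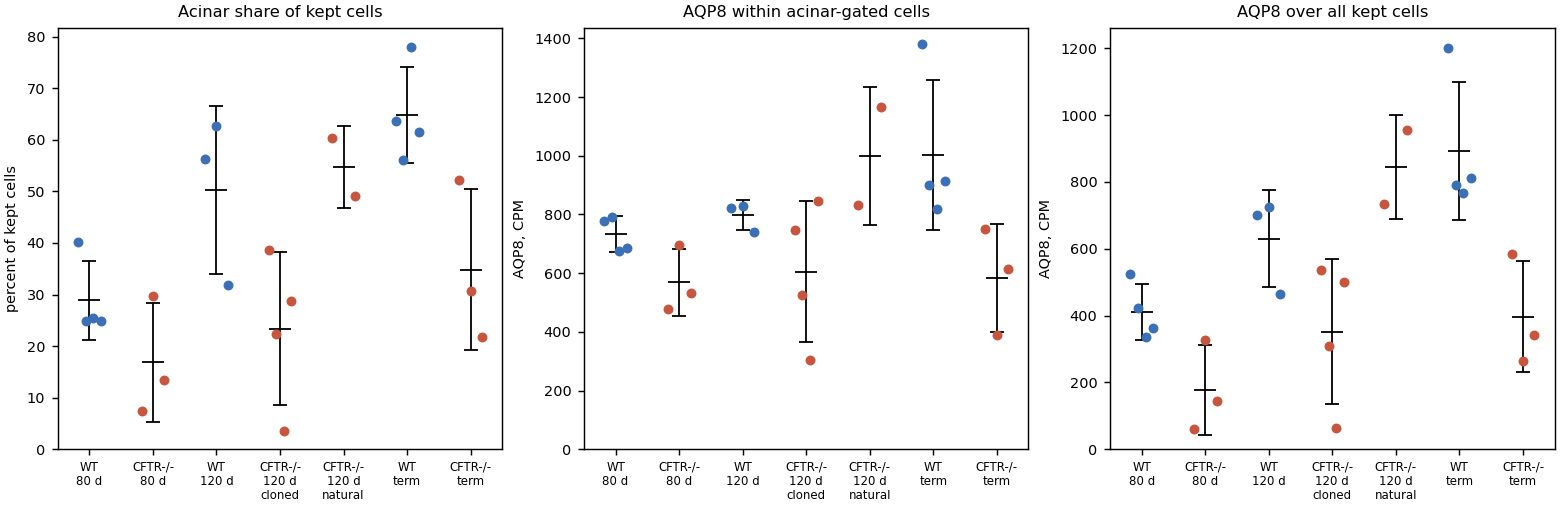
Acinar share of kept cells in percent, AQP8 level in acinar cells in CPM and AQP8 level over all kept cells in CPM, for the 7 groups, with 1 point per animal and bars for mean ± SD. At term the CFTR-/- lambs lie below the WT lambs in all 3 panels. The cloned fetuses at 120 days reach down to 3.61% acinar cells, in replicate 3, which had 943 kept cells.

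Outside the acinar gate AQP8 was counted at a low level in every lineage. In droplet libraries free RNA gives UMIs in cells that do not express a gene, and from 1 source it keeps the genes' counts in 1 ratio. AQP8 was therefore set against the summed UMIs of 5 acinar genes that were not used by the gate (CPA1, CELA3B, PRSS2, PNLIPRP2 and CLPS) in the same cells, and the ratio was divided by that in the acinar cells of the same animal. This ratio was added after the data had been seen. The 5 genes did not keep 1 proportion between duct and acinar cells. In the CFTR-/- lambs mean CELA3B was 4542 CPM in duct and 34510 CPM in acinar cells, and mean PNLIPRP2 was 74.6 and 2353 CPM. The ratio therefore depends on which genes are summed, and other choices were not tested.

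The median ratio was 1.01 in endocrine, 1.02 in stromal, 1.01 in mural, 0.922 in endothelial, 0.978 in Schwann and 0.959 in lymphoid cells, and none of these differed from 1 past the threshold (exact paired permutation, adjusted p = 0.547 to 0.862). Duct cells stood above 1 in 20 of 23 animals, with a median of 1.46 and a range of 0.934 to 4.89. In the test, which adds 0.5 to the counts, they were higher in 21 of 23 animals, and their mean difference from acinar cells was 0.62 ± 0.48 on the log2 scale (SD, exact paired permutation p = 9.54e-07, adjusted p = 7.63e-06). Myeloid cells stood above 1 in 13 of 14 animals, with a median of 1.63 and a range of 0.763 to 192 (exact adjusted p = 0.00146).

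**Figure D3:**
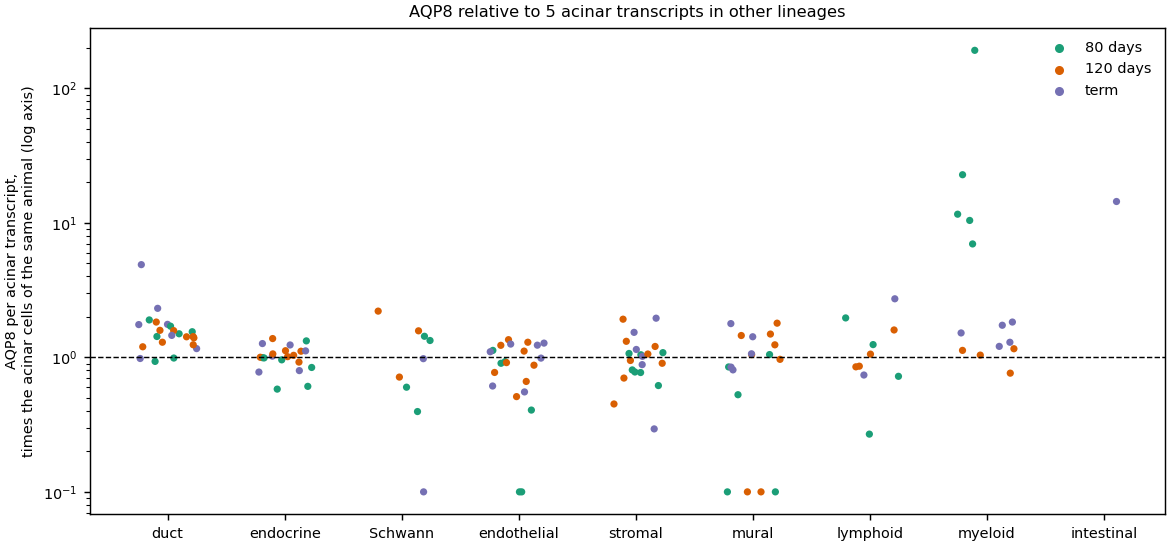
AQP8 UMIs per UMI of 5 acinar genes in each non-acinar lineage, as a multiple of the same ratio in the acinar cells of that animal (log axis), with 1 point per animal coloured by age and a dashed line at 1. Points of 0 are drawn at 0.1. Duct points lie mostly above the line, and myeloid points of 80-day fetuses reach 192.

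In duct cells AQP8 was 10.8, 15.7, 20.4 and 26.1 CPM in the WT group and 1.19, 11.7 and 3.18 CPM in the CFTR-/- fetuses at 80 days. One CFTR-/- fetus, replicate 2, exceeded the lowest WT fetus, and the fitted change was -1.70 (SE 0.77, edgeR adjusted p = 0.31). At term duct AQP8 was at 25.8, 92.3, 40.2 and 41.5 CPM in WT and 240, 57.9 and 44.7 CPM in CFTR-/- lambs, with a fitted change of 1.46 (SE 0.65, edgeR adjusted p = 0.20). The groups overlapped, since WT replicate 2 exceeded 2 of the 3 CFTR-/- lambs, and without CFTR-/- replicate 1 the change was 0.12 (adjusted p = 0.944). Neither comparison called AQP8, with 1.66% and 5.01% of 13363 genes called, although AQP8 had an unadjusted p under 0.05 in both, and DESeq2 called it in neither.

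The difference between those effects, term minus 80 days, was 3.16 on the log2 scale (unadjusted p = 0.0049, edgeR adjusted p = 0.44, with 0.0299% of genes called). Its value without CFTR-/- lamb replicate 1 is not given here. The duct ratio to the acinar genes was 1.76, 4.89 and 2.32 times the acinar one in the CFTR-/- lambs and 0.98 to 1.75 times in the WT lambs (log2 difference 1.05, exact permutation p = 0.114, adjusted p = 0.686). The lowest CFTR-/- and the highest WT lamb were side by side, and with the 0.5 added to the counts for the test they stood at 1.76 and 1.77, so the groups overlapped.

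Over the 9 lineages, the members that passed the count filter gave 66 tests of CFTR-/- against WT, and edgeR called 0 of them, with 11 at an unadjusted p under 0.05. In 10 of the 66, in Schwann, lymphoid and myeloid cells, a group had 1 animal, whose spread was taken to be that of the other groups, and 1 of the 11 was among these. The share of all genes called in those 33 comparisons ran from 0% to 5.01%, with a median of 0.0134%. DESeq2, run for acinar, duct, endocrine and endothelial cells, called no member there either. The 2 smallest adjusted p-values among them were those of AQP8 in stromal cells at 80 days (log2 fold change -2.62, adjusted p = 0.198, with 0.231% of genes called) and in duct cells at term, and the stromal AQP8 ratio to the acinar genes did not differ from 1.

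AQP8 in myeloid cells was held mostly by few cells at 80 days. A myeloid cell was counted as high in AQP8 with at least 200 CPM and at least 2 UMIs. At 80 days 24 of 502 myeloid cells (4.78%) were high, in 6 of 7 fetuses, and they held 432 of the 458 myeloid AQP8 UMIs and 114 UMIs of the 5 acinar genes, with up to 73 AQP8 UMIs in 1 cell. At 120 days 4 of 274 cells (1.46%) were high, with 9 of 35 AQP8 UMIs and 50 acinar-gene UMIs, and at term 21 of 902 (2.33%), with 125 of 228 and 11453 UMIs. Summed per animal, these cells, which were chosen for their AQP8, held more AQP8 than acinar-gene UMIs in 5 of 6 fetuses at 80 days and in 1 of 8 animals at the later ages. CFTR-/- replicate 1 held 191 of the 432 AQP8 UMIs at 80 days.

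The high cells of the 80-day fetuses were found in both genotypes. They numbered 0 of 11, 3 of 26, 6 of 49 and 6 of 143 myeloid cells in the WT group and 4 of 66, 2 of 92 and 3 of 115 in the CFTR-/- fetuses. Myeloid AQP8 at 80 days was 116 ± 56.8 CPM in 3 WT-group fetuses and 20.2, 26.9 and 176 CPM in the CFTR-/- fetuses.

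The transcripts of the 24 high cells were set beside those of the 459 myeloid cells of that age without an AQP8 UMI, as a description of cells chosen by their AQP8 count and of genes chosen after their values were seen. SPP1, the secreted phosphoprotein osteopontin, was at 62640 against 5467 CPM, LYVE1, a hyaluronan receptor of tissue macrophages and lymphatic vessels, at 718 against 47.1 CPM, and CTSK and ACP5, a protease and a phosphatase that osteoclasts and some macrophages make, at 1218 against 290 and 610 against 127 CPM. The general macrophage genes were present in both, with CD68 at 847 and 279 CPM, CSF1R at 1466 and 815 CPM and C1QA at 2563 and 2003 CPM, while AIF1 was at 879 and 998 CPM and PTPRC, of all leukocytes, at 145 and 409 CPM. S100A8, of neutrophils and monocytes, was at 0 in the high cells and at 898 CPM in the others. The 10 genes with the largest fold, after 20 CPM were added, also held TMEM37 (317 against 5.56 CPM) and BGN (635.5 against 57.3 CPM). GNG11 (808 against 88.5 CPM) and MEPE (140 against 0 CPM) were among them too. The acinar gate genes were low in both, with CEL at 16.1 and 42.5 CPM and CTRC at 6.88 and 4.00 CPM.

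**Figure D4:**
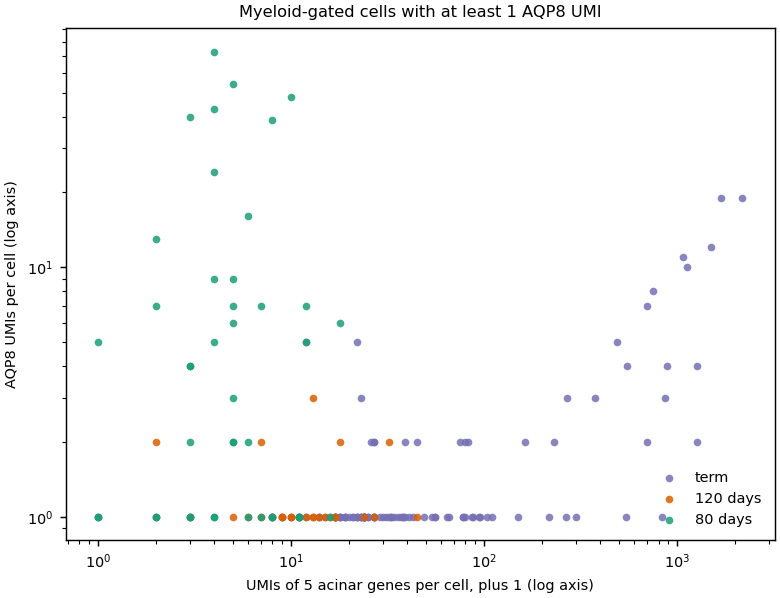
AQP8 UMIs against the summed UMIs of 5 acinar genes, plus 1, in each myeloid cell with an AQP8 UMI (both axes log), coloured by age. Cells of 80-day fetuses reach 73 AQP8 UMIs at few acinar UMIs, and cells at term lie to the right, at many acinar UMIs.

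AQP8 was also counted in the intestinal gate. In WT lamb replicate 4 its 137 cells had 530 AQP8 UMIs against 6386 UMIs of the 5 acinar genes, which was 14.5 times the acinar ratio of that lamb, at 176 CPM. There was no second animal with 20 such cells.

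AQP1 in endothelial cells rose from 120 days to term in the WT animals. It was 2.13, 1.31 and 1.86 CPM in the fetuses at 120 days and 54.2, 7.0, 18.2 and 23.4 CPM in the lambs, with no overlap. The means were 1.77 ± 0.417 and 25.7 ± 20.2 CPM (SD), from 6 and 55 UMIs, and the log2 fold change was 3.54 (SE 0.68, edgeR adjusted p = 0.00700), in a comparison that called 2.09% of 9866 genes. With the fit restricted to these 2 groups the change was 3.47 and was no longer called (adjusted p = 0.0765).

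At 80 days endothelial AQP1 was at 2.30, 2.48, 0 and 1.67 CPM in the WT group, from 4 UMIs, and at 1.77, 0 and 1.63 CPM in the CFTR-/- fetuses. The cloned and naturally bred CFTR-/- fetuses at 120 days had 3.94, 1.41, 4.17 and 6.28 CPM and 2.23 and 4.48 CPM. In the CFTR-/- lambs it was 28.9, 10.8 and 25.2 CPM, within the range of the WT lambs (log2 fold change 0.10, adjusted p = 1). Of the 2 members tested in endothelial cells at term, AQP1 and AQP8, edgeR called 0, with 0% of the genes called, 370 genes at an unadjusted p under 0.05 and 1 called by DESeq2. AQP8 was among the 370 (log2 fold change -1.66, unadjusted p = 0.0331, edgeR adjusted p = 1). AQP1 was nearly absent from the epithelium, with 3 UMIs in acinar and 2 in duct cells.

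AQP3 in acinar cells rose from 80 to 120 days in the WT group. It was 0.120, 0, 0.604 and 0.0524 CPM at 80 days (12 UMIs) and 1.47, 2.01 and 2.42 CPM at 120 days (270 UMIs), with no overlap. The log2 fold change was 4.42 (SE 0.82, edgeR adjusted p = 0.00824). It was the 1 called member of 4 in this comparison, which called 1.45% of the genes, and DESeq2 called it too. Without the CFTR+/- fetuses the change was 3.66 and was no longer called (adjusted p = 0.22), and without replicate 4 of the 80-day WT group it was 4.08 (adjusted p = 0.0502).

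The CFTR-/- fetuses at 80 days had 1.92, 1.05 and 0.714 CPM of AQP3 in acinar cells, all above the WT group. That comparison gave 2.45 on the log2 scale (SE 0.96, unadjusted p = 0.018, edgeR adjusted p = 0.32). At 120 days AQP3 was at 2.24, 0.933, 0 and 1.80 CPM in the cloned and 4.90 and 3.64 CPM in the naturally bred CFTR-/- fetuses, and at term at 0.739, 4.26, 2.39 and 0.779 CPM in WT and 2.21, 2.79 and 3.51 CPM in CFTR-/- lambs. The cloned effect at 120 days minus the effect at 80 days was -3.04 for AQP3 (unadjusted p = 0.016, edgeR adjusted p = 0.82, with 0% of genes called).

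AQP3 in lymphoid cells was at 43.0, 7.71 and 15.5 CPM in 3 WT-group fetuses and at 13.7, 10.1 and 14.6 CPM in the CFTR-/- fetuses at 80 days. It was at 0 CPM in both lambs with enough lymphoid cells, and no lymphoid comparison called it.

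AQP4 in acinar cells showed no called change. In the WT animals it was 15.5, 6.86, 6.56 and 7.12 CPM at 80 days, 2.41, 3.59 and 4.76 CPM at 120 days and 4.51 to 6.61 CPM at term. The change from 80 to 120 days was -0.38 (edgeR adjusted p = 0.65), and scaled by library size alone it was -1.34 with an adjusted p of 0.020, on a scale where the median gene moved by -0.93. In CFTR-/- acinar cells AQP4 was 6.08, 10.4 and 11.7 CPM at 80 days and 2.21, 9.17 and 3.58 CPM at term, overlapping WT at both ages. The cloned fetuses at 120 days had 8.55, 14.3, 4.61 and 5.82 CPM (log2 fold change 0.80, SE 0.35, unadjusted p = 0.031, edgeR adjusted p = 0.52), and their lowest value lay below the highest of the WT fetuses.

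AQP4 in endocrine cells had a mean of 16.9 CPM at 80 days, 11 CPM at 120 days and 4.50 CPM at term in the WT group. The WT values were 19.2, 14.4, 11.5 and 22.5 CPM at 80 days, 14.5, 9.45 and 8.96 CPM at 120 days and 9.63, 2.34 and 1.54 CPM at term. The step from 120 days to term was -1.04 on the log2 scale and was not called (edgeR adjusted p = 0.35, with 1.9% of 13178 genes called). The naturally bred CFTR-/- fetuses had 3.29 and 3.87 CPM, below all WT fetuses of their age, with a change of -1.48 (SE 0.64, unadjusted p = 0.030, edgeR adjusted p = 0.31, with 0.0683% of genes called). The CFTR-/- lambs had 5.38, 1.67 and 0.804 CPM, overlapping WT.

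AQP4 in Schwann cells was at 15.6 to 48.1 CPM in all 10 animals with enough cells, and AQP11 at 0 to 15.6 CPM, above 0 in 9 of the 10. The AQP4 values rested on 4 and 5 UMIs in the WT group at 80 and 120 days and on 3 UMIs in the CFTR-/- lambs. The CFTR-/- fetuses had 169 AQP4 UMIs at 80 days and the cloned ones 20 at 120 days. For AQP11 the UMIs were 2, 1, 1, 54 and 10 in the same order. Both groups of fetuses that could be compared there, CFTR-/- against WT at 80 days and cloned CFTR-/- against WT at 120 days, had 1 WT animal each. AQP11 group means were 0.594 to 1.47 CPM in acinar cells, and 2.13, 1.69 and 0.768 CPM at the successive ages in WT endocrine cells. The AQP11 change nearest to a call was 0.98 in WT acinar cells from 80 to 120 days after TMM scaling (unadjusted p = 0.043, edgeR adjusted p = 0.30). Its mean there was 0.968 CPM at 80 days and 0.995 CPM at 120 days, so it hardly moved on the CPM scale. AQP5, with 18 UMIs in all, passed the filter in no lineage, and 6 of its 9 duct UMIs were in the 3 CFTR-/- lambs, at 0.302, 0.292 and 0.0543 CPM.

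**Figure D5:**
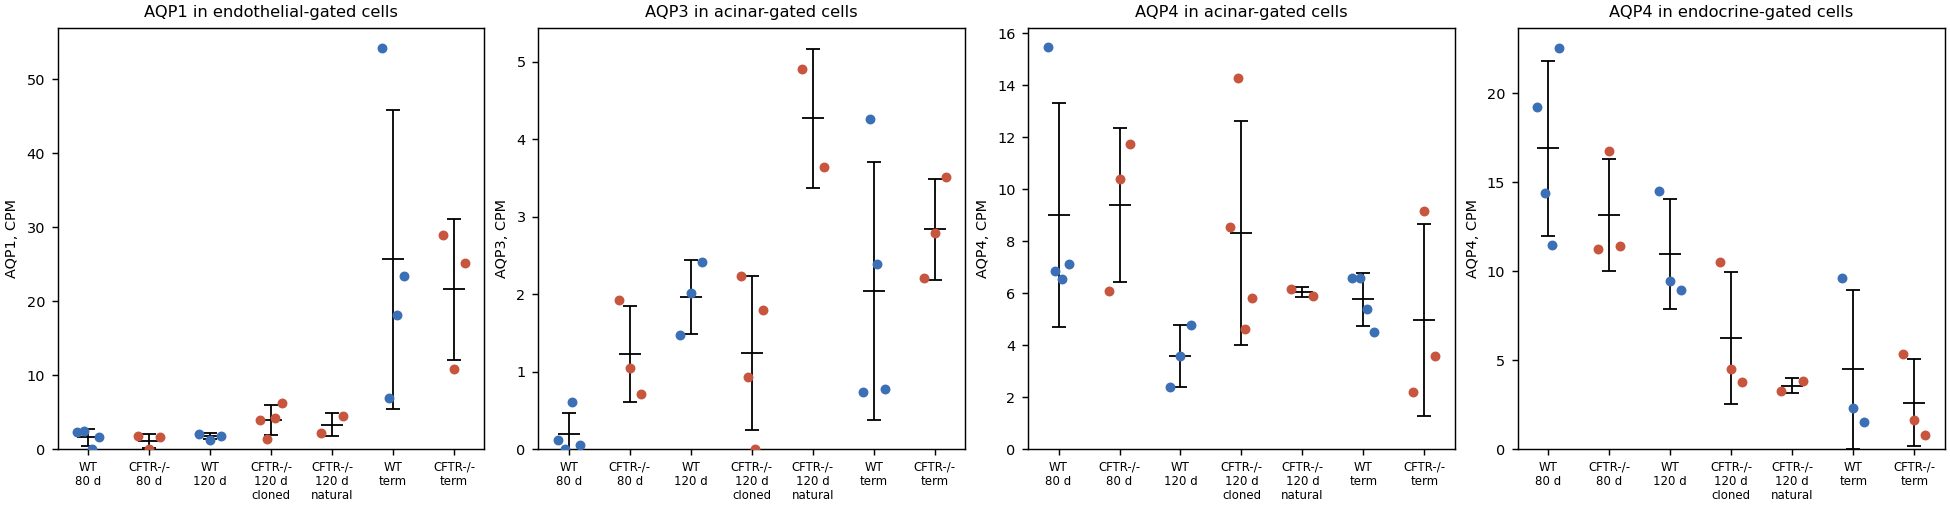
Levels in CPM of AQP1 in endothelial cells, AQP3 and AQP4 in acinar cells and AQP4 in endocrine cells for the 7 groups, with 1 point per animal and bars for mean ± SD. Endothelial AQP1 is at most 6.28 CPM in the fetuses and at 7.0 to 54.2 CPM in the lambs, and acinar AQP3 is at most 0.604 CPM in the 80-day WT group.

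Of the aquaporins outside the 7 chosen ones, AQP7 (1259 UMIs), an aquaglyceroporin of fat cells, was called in acinar cells from 120 days to term in WT, by 4.54 (SE 1.47, edgeR adjusted p = 0.0378, with 18.8% of 15063 genes called). Its levels were 0, 0 and 0.0258 CPM at 120 days and 0.0821, 0.0304, 0.462 and 0.315 CPM at term, and 5 of the 7 fits that left out 1 animal lost the call. In stromal cells AQP7 was at 10.5 and 94.3 CPM in the naturally bred CFTR-/- fetuses and at 0 CPM in all 4 cloned ones (difference cloned minus natural -9.97, edgeR adjusted p = 0.00264, with 0.924% of 11682 genes called). These levels rested on 7 UMIs in 1 of 136 stromal cells and 70 UMIs in 11 of 134. Genes of fat cells moved with it there, with ADIPOQ, the hormone adiponectin, at 212 and 1067 CPM in the same fetuses and PLIN1, of the lipid droplet, at 9.03 and 84.9 CPM, and their part in the result was not tested.

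AQP9, another aquaglyceroporin, had 333 UMIs, 73.0% of them in duct cells, and its change there from 80 to 120 days in WT was 2.74 (edgeR adjusted p = 0.065, with 1.2% of 13363 genes called). AQP10 had 245 UMIs, 44.5% in endocrine cells. MIP had 88 UMIs, AQP6 13 and AQP2 3.

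The genes of acinar and duct fluid secretion that accompany water channels were taken from lists. Of 11 acinar transport genes, 9 were tested in acinar cells and edgeR called none in a CFTR-/- comparison, with 4 of the 36 tests at an unadjusted p under 0.05 and with 0.624%, 0%, 1.3% and 1.25% of all genes called at 80 days, in the cloned and naturally bred fetuses at 120 days and at term. There their median log2 change was 0.26 at 80 days, 0.30 and -0.12 in the cloned and naturally bred fetuses at 120 days and -0.0029 at term, beside medians of all genes near 0. In the WT group ATP1B1, a subunit of the sodium pump, was called from 80 to 120 days after TMM scaling (0.91, edgeR adjusted p = 0.047, with 1.45% of genes called), but its mean was 34.5 CPM at 80 days and 34.2 CPM at 120 days, so it did not rise on the CPM scale. From 120 days to term, where 18.8% of acinar genes were called, ANO1, the calcium-activated chloride channel of acinar cells, rose by 1.46 (5.69 against 1.94 CPM, adjusted p = 0.00131), while CCKAR, the cholecystokinin receptor, fell by 3.03 (5.05 against 36.1 CPM, adjusted p = 0.00131) and ITPR2, a calcium release channel, fell by 1.24 (adjusted p = 0.000746). ANO1 also rose in duct cells from 120 days to term (2.87, adjusted p = 0.0422, with 0.883% of 13363 genes called), and none of the 32 duct tests of CFTR-/- against WT in this list was called, with 9 at an unadjusted p under 0.05 and with 1.66%, 0.127%, 0% and 5.01% of duct genes called at 80 days, in the cloned and naturally bred fetuses and at term.

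Of the 10 duct transport genes, 5 were tested in duct cells, and SLC4A4, the sodium bicarbonate cotransporter, fell in the CFTR-/- lambs by 2.07 on the log2 scale (edgeR adjusted p = 0.00337), where 5.01% of 13363 genes were called. It was the 1 called of 20 tests of CFTR-/- against WT, with 7 at an unadjusted p under 0.05. Of the 3 acinar transcription factors tested (GATA4, NR5A2 and RBPJL), edgeR called 0 in the 18 acinar tests, with 4 at an unadjusted p under 0.05, where 0% to 18.8% of all acinar genes were called. KCNQ1, a potassium channel of the duct list, rose in WT acinar cells from 120 days to term (0.70, adjusted p = 0.0377). It was the 1 called of 6 duct-list genes tested there, where 18.8% of all acinar genes were called. In the WT lambs its mean was 8.16 CPM in acinar cells beside 83.2 CPM in duct cells. The 16 digestive enzyme genes include the gate genes CEL and CTRC, so the list medians and the CTRC calls draw on the gate itself. Of the 16 genes, 4 rose from 80 to 120 days (CTRB1, CTRC, PLA2G1B and PRSS2), with a list median of 1.77 and 1.45% of all acinar genes called. From 120 days to term 5 rose (CTRB1, CTRC, PRSS1, PRSS2 and SYCN) and PNLIPRP2 fell by 1.14, where 18.8% of all acinar genes were called. In CFTR-/- acinar cells the enzyme medians were 0.56 at 80 days, -0.83 and 0.25 at 120 days and 0.14 at term, with 1 call, CTRC at 80 days (2.37, adjusted p = 0.0435), which is itself a gate gene. This was 1 call in 64 tests, with 13 at an unadjusted p under 0.05. Of all acinar genes 0.624% were called at 80 days, 0% and 1.3% in the cloned and naturally bred fetuses and 1.25% at term. In the duct gate edgeR also called CTRC from 80 to 120 days (2.83, adjusted p = 0.0497, with 1.2% of genes called), CTRB1, CTRC and PRSS1 from 120 days to term (4.29, 3.87 and 4.70, with 0.883% of genes called) and PRSS2 in the CFTR-/- fetuses at 80 days (-2.78, adjusted p = 0.0356, with 1.66% of genes called). These are acinar transcripts at a low level in that gate. Duct CTRC was 3.93 and 27.7 CPM at 80 and 120 days beside 333.5 and 1271 CPM in acinar cells, and duct PRSS2 was 99.7 CPM in the WT group and 14.3 CPM in CFTR-/- at 80 days beside 4627 and 3228 CPM in acinar cells. The acinar share of all UMIs was 51.5% and 26.2% in those groups at 80 days, and the part of free acinar RNA in the duct calls was not tested.

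The genes with the pattern nearest to each member were found by Pearson's r of log2(mean CPM + 1) over 57 lineage-by-group means. These means share animals, libraries and depth, so r is a description only. Ranked were genes that reached 10 CPM in at least 1 of the means. Genes of the marker lists and the aquaporins were left out, so a marker could not be named as nearest. GP2, the zymogen granule membrane protein (r = 0.903), AMY2B, a pancreatic amylase (0.903), and LOC101117443 (0.901) were nearest to AQP8. MADCAM1, an endothelial adhesion molecule, was nearest to AQP1 (0.82), followed by CCDC85A (0.80) and ACKR1, a chemokine receptor of venules (0.79). GFRA3, a neurotrophic factor receptor of glia and neurons, was nearest to AQP4 (0.88), followed by PPP1R36 (0.86) and CHST9 (0.85). LRRTM4, a synaptic adhesion protein (0.785), GFRA3 (0.783) and GRIK2, a glutamate receptor subunit (0.775), were nearest to AQP11. AQP3 had lower values, with MLC1 at 0.68, POU2AF1, a B-cell transcription coactivator, at 0.62 and LOC101103794, with no symbol in the tables, at 0.62.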

How the data were processed

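The authors deposited UMI counts per gene and called barcode, made with Cell Ranger 3.1.0 on the sheep genome Oar_v4.0, without normalization. The members and lists were chosen with earlier results of these data known, and the text names the chosen aquaporins, the other aquaporins with a UMI, the list genes past the threshold in acinar and duct cells, and the 3 genes nearest in pattern to a member. The acinar gate required CEL plus CTRC of at least 2000 CPM and 4 times the median of the nonepithelial cells of the library, and other gates a score of 1 over at least 3 markers. The multiple of the median set the acinar threshold in WT lamb replicate 2 alone, at 7726 CPM from a median of 1931 CPM. The acinar share and AQP8 level of that lamb thus rest on a stricter gate than those of the other animals. No doublet caller was run, since cells of mixed gates were left out. Genes listed under LOC identifiers were named from the study's marker tables.

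Counts were summed per animal and lineage with at least 20 cells, filtered with filterByExpr, scaled by TMM and fitted over all 7 groups with edgeR 4.0.16 (glmQLFit, glmQLFTest, R 4.3.3), and genes with a Benjamini-Hochberg adjusted p of at most 0.05 were called. P-values measure the spread between animals. In simulated acinar counts with 200 genes changed by 2 on the log2 scale the fit found 62% to 81% of them across comparisons, and 3.62% to 6.17% of its calls were false. Smaller changes, such as those fitted for acinar AQP8 between genotypes, were not simulated, so these shares do not apply to them. Shares and single values were compared by exact permutation (SciPy 1.17.1). Acinar sums held 866871 to 131680331 UMIs per animal. Replicate numbers did not pair animals, since no comparison had every same-number correlation above 0.1. Alternatives were DESeq2 1.42.0, other scaling, filters and gates, a replicate block and leaving out each animal.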

Additional observations from a re-analysis of the deposited data

Results flagged for a closer look

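In the groups of 4 animals, the farthest animal was set against the others by Dixon's test, over 25 sets of values, of which chance flags about 1 in 20, and 4 had an animal apart. WT lamb replicate 1 had an acinar AQP8 level of 1381 CPM, with the other WT lambs at 819 to 913 CPM. The same lamb had 1202 CPM of AQP8 over all kept cells, with the others at 766 to 813 CPM. WT-group fetus replicate 1 at 80 days had an acinar share of 40.3%, with the others at 24.8% to 25.5%. The same fetus had 15.5 CPM of AQP4 in acinar cells, with the others at 6.56 to 7.12 CPM. The other fetuses of that group, replicates 2 to 4, were triplets, and replicate 1 was of another litter.

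AQP7 in stromal cells differed between cloned CFTR-/- fetuses and naturally bred ones at 120 days, with a cloned minus natural difference of -9.97 on the log2 scale by the contrast of the edgeR fit. All 4 cloned fetuses were at 0 CPM, so the fitted value depends on the prior count and is no bound.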

How the results depend on the processing

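The acinar AQP8 level kept its direction and side of the threshold in 72 of 73 alternatives that left out no animal and in all 40 that did. The acinar share kept its direction in all 26 and in 38 of 40 (no share test could reach 0.05). Over those 26 the share difference ran from -16.0 to -6.43 points at 80 days, so its size depended on the setting. It ran from -28.2 to -26.6 in the cloned fetuses, 4.61 to 5.80 in the naturally bred ones and -31.6 to -27.8 at term. The exception for the level, AQP8 in WT acinar cells from 80 to 120 days, was called with only these groups in the fit (1.03, adjusted p = 0.00449, against 0.00449 to 0.557 over its alternatives), and the cause was not tested. Scaled by library size alone the genotype effect on acinar AQP8 at term minus that in cloned 120-day fetuses turned to -0.39. AQP1 in endothelial cells at term, CFTR-/- against WT, turned to -0.0037 with DESeq2, to -0.36 without WT replicate 2 and to -0.31 without CFTR-/- replicate 1, with 0.61 as the highest value over the left-out lambs. AQP9 in duct cells of the WT group from 80 to 120 days was called by DESeq2 (2.79, adjusted p = 0.0273) and with only these groups fitted (2.72, adjusted p = 0.0176).

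With 1 animal left out at a time, the fitted change of acinar AQP8 ran from -0.58 to -0.48 at 80 days, from -1.13 to -0.48 in the cloned and 0.08 to 0.56 in the naturally bred fetuses, from -1.07 to -0.24 at term, and in WT from 0.98 to 1.11 and 0.12 to 0.25. The differences of effects ran from -0.54 to 0.31 (term minus 80 days, 0.31 without CFTR-/- lamb 2), -0.29 to 0.53 (term minus cloned 120 days, -0.29 without CFTR-/- lamb 1 and -0.12 without cloned replicate 3), -0.59 to 0.0593 (cloned 120 minus 80 days, 0.0593 without cloned replicate 3) and -1.47 to -0.82 (cloned minus natural). The acinar share difference ran from -18.5 to -7.29 points at 80 days, -36.1 to -20.3 and -4.77 to 10.7 at 120 days (-4.77 without WT replicate 3 and -1.21 without natural replicate 5), -38.6 to -23.4 at term, and 15.2 to 30.6 and 5.34 to 20.8 in WT.

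The counts of acinar genes called, 94 at 80 days, 0 and 196 in the cloned and natural fetuses, 189 at term, and 218 and 2827 in WT, changed by more than 1.5 times under several settings. They were 251, 72, 484, 433, 550 and 3170 with DESeq2, 569, 10, 493, 0, 1173 and 610 with only the groups compared, and 65, 0, 54, 73, 7004 and 1532 with library size alone. With 1 animal left out they ran over 5 to 61, 0 to 14, 0 to 147, 21 to 860, 55 to 138 and 1606 to 3771. With a replicate block the counts were 51, 0, 88, 108 and 2099 at 80 days, in the cloned fetuses, at term and in the WT steps, AQP3 kept its call (adjusted p = 0.036) and the block changed no other call of a member, and natural fetuses share no numbers with WT. Depth limits AQP1, AQP5 and AQP3 at 80 days, whose values rest on few UMIs. It also limits AQP4 and AQP11 in Schwann cells outside the CFTR-/- fetuses at 80 days.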
